A study of Mus musculus with 7 samples.

Results

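Opioid peptides and their receptors were examined in tissue dissected around the suprachiasmatic nucleus (SCN), the small pair of hypothalamic cell groups that keep daily time for the body. The 7 genes were chosen by name, with earlier results of these data known. They were the precursor genes Penk, Pdyn and Pnoc and the receptor genes Oprm1, Oprk1, Oprd1 and Oprl1. They are 7 of the 55487 genes in the deposited count table; all 7 had a count in some library, and 5 passed the filter on low counts that left 14020 genes for testing. The 3 libraries of the advanced glaucoma group (titled scn_glauc_152, scn_glauc_153 and scn_glauc_154) came from DBA2J mice, whose mutation of Gpnmb leads to high eye pressure and retinal damage. The 4 libraries of the control group (titled scn_cont_565, scn_cont_567, scn_cont_568 and scn_cont_570) came from DBA/2J-Gpnmb+SjJ mice, which lack that mutation. Both groups lived in 12 h light and 12 h dark. The labels give the genotype as WT for all 7 samples, so it was not used to form the groups. Age, sex and time of day were not stated. The tissue was taken from sections of 600 μm, thick enough to hold nuclei that border the SCN.

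The precursors are large proteins that convertases cut into short peptides. Penk gives the enkephalins, which act mainly at the delta and mu receptors; Pdyn gives the dynorphins and neo-endorphins, which act mainly at the kappa receptor; and Pnoc gives nociceptin, which acts at the receptor encoded by Oprl1. All 4 receptors couple to inhibitory Gi/o proteins, which lower cAMP, open potassium channels and close calcium channels. In the hypothalamus, Pdyn is known from vasopressin neurons, orexin neurons and the ventromedial and arcuate nuclei, and Penk from many nuclei, the SCN among them.

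Penk and Pdyn hold repeats of one short core, and Pnoc holds a single related core. The stretches of DNA that encode these cores are shown because they define the family. They come from the coding sequences of the GENCODE M21 transcripts on GRCm38, read on the coding strand from 5′ to 3′. Capitals mark the 5 codons of the core, and the lower-case bases are the 6 on each side, where codons for paired basic residues usually mark the cutting sites.
Penk core 1: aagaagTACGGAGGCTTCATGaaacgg
Penk core 3: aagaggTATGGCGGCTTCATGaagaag
Penk core 6: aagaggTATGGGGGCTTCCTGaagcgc
Pdyn core 1: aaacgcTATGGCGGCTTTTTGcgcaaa
Pdyn core 2: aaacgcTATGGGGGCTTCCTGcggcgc
Pdyn core 3: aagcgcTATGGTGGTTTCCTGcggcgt
Pnoc core: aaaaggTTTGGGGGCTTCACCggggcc
Penk held 7 in-frame cores in 804 coding bases, of which 6 ended in ATG, the codon of Met-enkephalin, and 1 in another codon. Pdyn held 3 in 744 coding bases, and none of the 3 ended in ATG. The Pnoc core, found with a separate search that required TTC or TTT in place of TAC or TAT as its first codon, occurred once in 636 coding bases. A count of 1 Penk transcript therefore stands for more copies of a core peptide than a count of 1 Pdyn or Pnoc transcript.

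Library totals ran from 3585907 to 5118764 counts in advanced glaucoma and from 2174456 to 5285093 in control. Levels are given as CPM: each library's counts divided by its TMM-adjusted total and set on a common scale. The libraries are 3′ tag libraries, so levels are compared between libraries and not between genes. The shallowest library, scn_cont_565, lay at -50.81 on the first principal component (29.1% of the variance), while the others lay between -1.61 and 20.4. Several peptide genes that mark the SCN were low in advanced glaucoma. In scn_glauc_152, scn_glauc_153 and scn_glauc_154, Vip was at 1.18, 3.02 and 3.88 CPM, against 64.6 to 152.4 CPM in control. Its adjusted p was 0.00884 (edgeR quasi-likelihood test with Benjamini-Hochberg adjustment over all 14020 genes). The adjusted p of Vip was 0.0643 without scn_glauc_153, 0.0620 without scn_glauc_154 and 0.126 by limma-voom. Avp, a further peptide gene of the SCN list, overlapped between the groups (adjusted p = 0.929 by edgeR). Of 15 SCN marker genes, 10 were called lower and 0 higher (adjusted p under 0.05, edgeR), against 0.378% lower and 0.0927% higher among all tested genes. Log2 fold changes of the 15 were negative for 13 and positive for 2. In bulk tissue, fewer cells of a type and less RNA per cell cannot be told apart.

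The opioid genes split by direction. Penk and Pnoc were lower in every advanced glaucoma library than in any control library, and Pdyn, Oprk1 and Oprl1 were higher in every one. None of the 5 passed an adjusted p of 0.05 (edgeR quasi-likelihood test, Benjamini-Hochberg), where 66 of 14020 genes, or 0.471%, passed. All 5 were under an unadjusted p of 0.05, which 8.2% of tested genes were. The genes were chosen with earlier results of these data known, so this comparison is no test of the set. DESeq2 called 1 of the 5, Penk, and limma-voom called 0. The groups were apart without overlap for 8.02% of all tested genes. The number of genes called among all 14020 dropped to 33 without scn_cont_570 and to 28 without scn_glauc_154.

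Markers of other cells and nuclei moved with the groups in part of their lists. All 11 oligodendrocyte genes had a lower mean in advanced glaucoma (median log2 fold change -0.50), with 0 called by edgeR and 7 at an unadjusted p under 0.05 (0 by DESeq2 and 0 by limma-voom). Their summed level was 2197 to 4665 CPM in advanced glaucoma and 4077 to 5221 CPM in control. Of 10 astrocyte genes, 8 had a negative log2 fold change (median -0.18), and 4 were at an unadjusted p under 0.05 (edgeR). Aqp4, a water channel, was the 1 called by edgeR, and it fell (log2 fold change -0.62, adjusted p = 0.00873, and 0.0796 without scn_glauc_152). DESeq2 called 2 genes of the list and limma-voom 1. Gfap had the lowest log2 fold change of the list (-1.81, adjusted p = 0.366 by edgeR). Its level was 100 ± 14.9 CPM in advanced glaucoma and 346 ± 151 CPM in control. The astrocyte sums did not overlap, at 3730 to 3882 CPM in advanced glaucoma and 3964 to 4451 CPM in control. Those of 10 preoptic genes did not either, at 612 to 746 CPM in advanced glaucoma and 466 to 604 CPM in control. Of these genes 9 were tested and 0 were called by edgeR, DESeq2 or limma-voom. Log2 fold changes were positive for 6 and negative for 3. The 1 gene at an unadjusted p under 0.05 was Sncg, which was lower (log2 fold change -0.41, adjusted p = 0.238 by edgeR). Gal of the same list was at 255 ± 78.4 CPM in advanced glaucoma and 133 ± 56.7 CPM in control (adjusted p = 0.713 by edgeR). The sums of the thalamus, pan neuronal, microglia, and endothelium and meninges lists overlapped between the groups. Of these lists only the thalamus and pan neuronal lists held a call by edgeR. In the thalamus list Rora, a nuclear receptor, fell by 1.15 on the log2 scale (adjusted p = 3.31e-07 by edgeR). The list did not fall with it, since 4 of its 7 tested genes had a positive log2 fold change (median 0.14). In the pan neuronal list Nefl, a neurofilament subunit, rose by 0.63 (adjusted p = 0.00884 by edgeR, 0.0686 without scn_cont_565 and 0.0627 without scn_glauc_153). The microglia list had 0 genes and the endothelium and meninges list 1 gene at an unadjusted p under 0.05, and neither had a call by DESeq2 or limma-voom. The part of these cells and nuclei in the opioid gene differences was not tested.

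**Figure D1:**
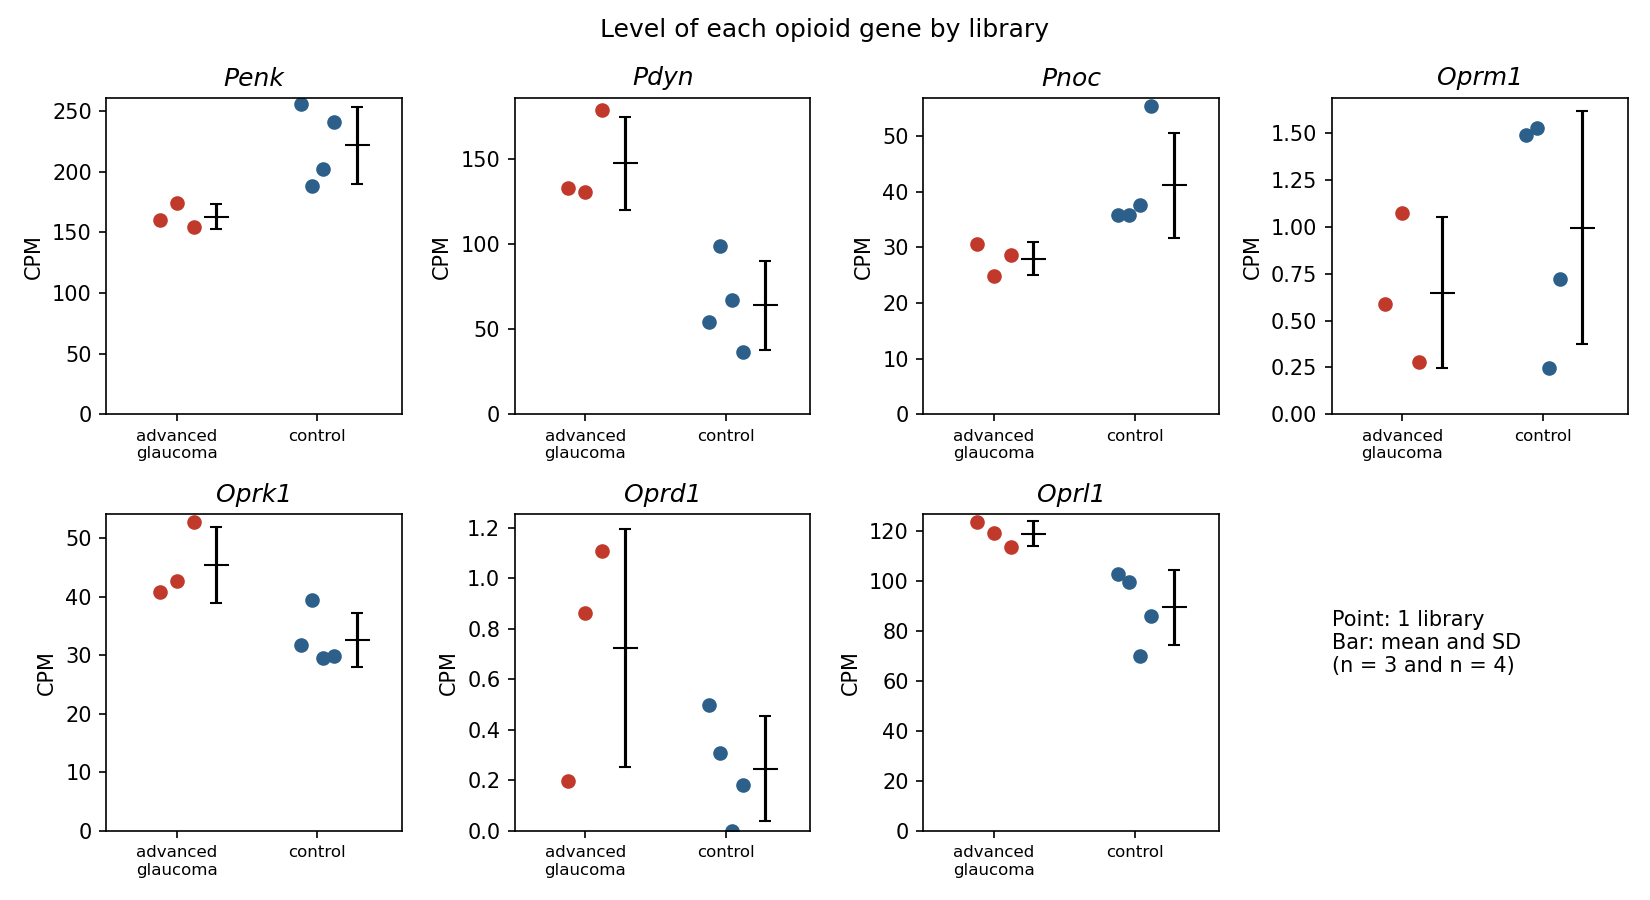
Level of each of the 7 opioid genes, in CPM on axes that start at 0; each point is a library, and the bars give the mean and SD (n = 3 advanced glaucoma, n = 4 control). Points of the groups do not overlap for Penk, Pdyn, Pnoc, Oprk1 and Oprl1, and overlap for Oprm1 and Oprd1, which lie under 2 CPM.

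Penk, the proenkephalin precursor (ENSMUSG00000045573, chromosome 4, 4133531 to 4138819, minus strand, GRCm38), was at 159.8 CPM in scn_glauc_152, 174 in scn_glauc_153 and 155 in scn_glauc_154. In control it was at 256 CPM in scn_cont_565, 188 in scn_cont_567, 202 in scn_cont_568 and 241 in scn_cont_570. The lowest control library, scn_cont_567, stood above the highest advanced glaucoma library, scn_glauc_153. Means were 163 ± 10.3 CPM in advanced glaucoma and 222 ± 31.9 CPM in control (SD, n = 3 and n = 4). The log2 fold change was -0.44, with an SE of 0.109, a 95% interval from -0.66 to -0.22 and an adjusted p of 0.0722 (edgeR), so Penk missed the threshold. It passed without scn_cont_567 (log2 fold change -0.51, adjusted p = 0.0267), and without scn_cont_565 it was at -0.37 (adjusted p = 0.131). Over its 13 alternatives the adjusted p ran from 0.0104 to 0.392. Penk overlaps the non-coding gene A830012C17Rik on the opposite strand over 499 bases, and that gene had 0 or 1 count in any library.

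Penk is also abundant in medium spiny neurons of the striatum, so markers of that cell type were read in the same libraries. Of 11 such genes, all were detected and 10 tested, with 0 higher and 0 lower (edgeR; 2 at an unadjusted p under 0.05, 0 by DESeq2 and 0 by limma-voom). Their summed level was 263 to 348 CPM in advanced glaucoma and 271 to 383 CPM in control. Adora2a, a defining marker of the striatal neurons that make enkephalin, had 1 to 4 counts per library in advanced glaucoma and 0 to 5 in control, and was close to undetected. Other markers of the same class were clearly detected: Drd2 was at 6.38 ± 0.0793 CPM in advanced glaucoma and 8.36 ± 4.28 CPM in control (adjusted p = 0.902 by edgeR), and Gpr6 at 10.5 ± 5.10 CPM in advanced glaucoma and 9.94 ± 3.97 CPM in control (0.964). Drd1, a marker of the other main striatal class, was at 4.33 ± 0.876 CPM in advanced glaucoma and 10.8 ± 3.30 CPM in control (-1.25 on the log2 scale, adjusted p = 0.115, edgeR). The part of striatal tissue in the Penk difference was not tested.

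Pnoc, the precursor of nociceptin (ENSMUSG00000045731, chromosome 14, 65400673 to 65425472, minus strand), had levels of 30.5, 24.8 and 28.5 CPM in the libraries scn_glauc_152, scn_glauc_153 and scn_glauc_154. The control values were 35.7, 35.8, 37.7 and 55.3 CPM in scn_cont_565, scn_cont_567, scn_cont_568 and scn_cont_570. One control library, scn_cont_570, stood far above the other 3, which lay within 2 CPM of each other. The means were 27.9 ± 2.93 CPM in advanced glaucoma and 41.1 ± 9.48 CPM in control (SD, n = 3 and n = 4). That is a log2 fold change of -0.58, with an SE of 0.173, a 95% interval from -0.93 to -0.22 and an adjusted p of 0.189 (edgeR). Without scn_cont_570 the log2 fold change was -0.38 (adjusted p = 0.688), and without scn_cont_565 it was -0.63 (adjusted p = 0.124). Pnoc passed in none of its 13 alternatives, at 0.0737 to 0.688.

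Pdyn, the prodynorphin precursor (ENSMUSG00000027400, chromosome 2, 129686565 to 129699844, minus strand), showed the largest difference of the 5 tested opioid genes. Its level was 133 CPM in scn_glauc_152, 131 in scn_glauc_153 and 179 in scn_glauc_154. In control it was 54.1 CPM in scn_cont_565, 98.9 in scn_cont_567, 66.9 in scn_cont_568 and 36.7 in scn_cont_570. The highest advanced glaucoma library held 1.37 times the lowest, and the highest control library 2.69 times the lowest; the SDs in CPM were alike. Means were 148 ± 27.2 CPM in advanced glaucoma and 64.2 ± 26.2 CPM in control (SD, n = 3 and n = 4), a 2.31-fold difference: 1.21 on the log2 scale, with an SE of 0.346 and a 95% interval from 0.34 to 2.08. Its adjusted p was 0.421 by edgeR and 0.116 by DESeq2. Without scn_cont_567, the control library with the most Pdyn, it passed at a log2 fold change of 1.50 (adjusted p = 0.00908). Without scn_cont_565 the log2 fold change was 1.16 (adjusted p = 0.551), and over 13 alternatives the adjusted p ran from 0.00908 to 0.790.

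**Figure D2:**
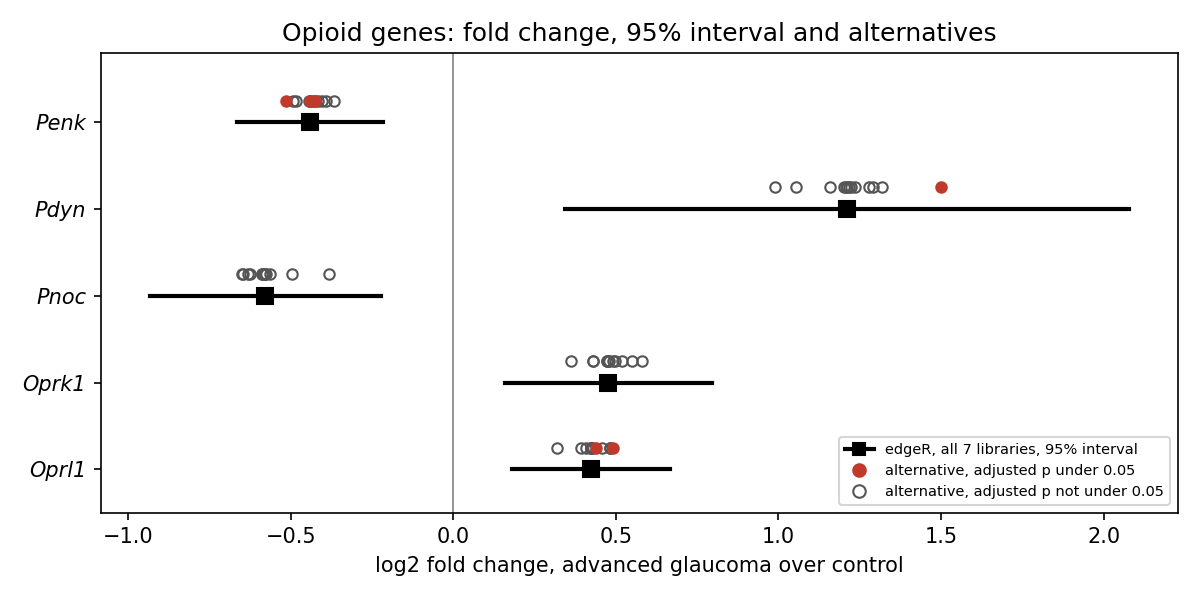
Log2 fold change of the 5 tested opioid genes, advanced glaucoma over control: squares and lines give the edgeR estimate and its 95% interval, and circles above give the 13 alternatives of each gene, filled where the adjusted p was under 0.05. Each gene stayed on its own side of 0 in every alternative shown. For fits without 1 library this was all but fixed in advance, as the groups did not overlap for these genes. Filled circles appear for Penk (3), Oprl1 (2) and Pdyn (1).

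The counts of Pdyn and Penk were also set against each other within each library, as a description that does not depend on the scaling. Pdyn had 83.1, 75.1 and 116 counts per 100 Penk counts in scn_glauc_152, scn_glauc_153 and scn_glauc_154. The same ratio was 21.2, 52.6, 33.1 and 15.2 in scn_cont_565, scn_cont_567, scn_cont_568 and scn_cont_570. With Pdyn higher and Penk lower in every advanced glaucoma library, the groups had to be apart in this ratio, so it adds nothing to the differences of both genes. Pnoc counts per 100 Penk counts did overlap, at 14.2 to 19.1 in advanced glaucoma and 13.98 to 22.9 in control.

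Markers of nuclei that border the SCN and hold dynorphin neurons were read in the same libraries. Of 8 lateral hypothalamus genes, all were detected and 6 tested, with 0 called either way by edgeR. DESeq2 called 1 and limma-voom 0, and 3 were at an unadjusted p under 0.05 (edgeR). Of the 6, 5 had a positive log2 fold change. The other, Rfx4, was lower (-0.48, adjusted p = 0.438 by edgeR) and was 1 of the 3 at an unadjusted p under 0.05. The summed level of the list was 622 to 1830 CPM in advanced glaucoma and 122 to 482 CPM in control. Cartpt, the precursor of CART peptides, gave most of that sum in 6 of the 7 libraries, at 386 to 783 CPM in advanced glaucoma and 63.9 to 401 CPM in control (adjusted p = 0.729 by edgeR). In scn_glauc_153 most came from Pmch, the melanin-concentrating hormone precursor, which was at 202 to 1331 CPM in advanced glaucoma and 11.9 to 25.3 CPM in control (adjusted p = 0.184 by edgeR). Of 9 arcuate nucleus genes, 8 were detected and tested and Kiss1 was at 0 in every library, with 0 called by edgeR (2 at an unadjusted p under 0.05, 1 by DESeq2 and 0 by limma-voom). The summed level of the arcuate list overlapped, at 1236 to 1911 CPM in advanced glaucoma and 1139 to 1917 CPM in control. Ghrh of that list had levels of 77.6, 38.3 and 65.6 CPM in the libraries scn_glauc_152, scn_glauc_153 and scn_glauc_154, against 8.82 to 26.6 CPM in control (adjusted p = 0.215 by edgeR). Th, a dopamine synthesis enzyme and the member with the smallest p, was at 50.8 to 69.0 CPM in advanced glaucoma and 30.3 to 53.6 CPM in control (adjusted p = 0.184 by edgeR). The part of these nuclei in the Pdyn difference was not tested.

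Dynorphin is made together with vasopressin in magnocellular neurons and together with orexin in the lateral hypothalamus, so both partner genes were read beside it. Avp, the vasopressin precursor, had levels of 1998, 3234 and 126 CPM in the libraries scn_glauc_152, scn_glauc_153 and scn_glauc_154, against 1064, 6718, 3023 and 2013 CPM in scn_cont_565, scn_cont_567, scn_cont_568 and scn_cont_570. Hcrt, the orexin precursor, was at 6.50, 59.7 and 1.66 CPM in the same advanced glaucoma libraries, against 15.9, 13.5, 3.47 and 7.02 CPM in the control libraries listed for Avp. The library with the most Pdyn of all 7, scn_glauc_154, had the least Avp and the least Hcrt. Within control the libraries with the most Pdyn, scn_cont_567 and then scn_cont_568, also had the most Avp. Avp is also among the SCN marker genes, so its level cannot tell magnocellular neurons from SCN neurons. The list of 8 vasopressin and oxytocin neuron genes also holds Trh, Brs3 and Fezf1, genes of other hypothalamic neurons. It summed to 490.2 to 5010 CPM in advanced glaucoma and 2466 to 9379 CPM in control. All 8 were tested, with a median log2 fold change of -0.61 and 0 called by edgeR, DESeq2 or limma-voom. Log2 fold changes were positive for 3 and negative for 5. The 2 at an unadjusted p under 0.05 (edgeR) went opposite ways. Crh was at -1.56 on the log2 scale (adjusted p = 0.389 by edgeR) and Fezf1 at 1.13 (0.380). Fezf1, which like Pdyn was higher, was at 86.2 ± 29.7 CPM in advanced glaucoma and 38.8 ± 11.3 CPM in control. The part of these neurons in the Pdyn difference was not tested.

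The genes whose profile over the 7 libraries was most like that of each precursor were found among 9856 genes with a mean of at least 10 CPM, by the root mean square difference of log2 CPM after centring. Matching used the libraries of both groups, so a gene found this way had to differ between the groups much as its precursor did. Those differences therefore add nothing to the differences of the precursors. For Pdyn they were Nkx2-1 (0.195), a homeobox regulator of ventral forebrain development, Cited1 (0.231), a transcriptional co-regulator, and Gpr149 (0.271), an orphan receptor. Nkx2-1 had levels of 47.5, 41.6 and 56.8 CPM in the libraries scn_glauc_152, scn_glauc_153 and scn_glauc_154, against 20.4, 26.02, 27.8 and 12.6 CPM in scn_cont_565, scn_cont_567, scn_cont_568 and scn_cont_570. It rose 2.26-fold (adjusted p = 0.00819 by edgeR), a call lost without scn_cont_565 (0.0626) or scn_glauc_154 (0.0664). Like Pdyn, it was lowest in scn_cont_570 and highest in scn_glauc_154. For Penk the 3 genes were Oat (0.0715), an ornithine enzyme, Slc6a9 (0.0739), a glycine transporter, and Cmtm5 (0.0769). None of those 3 passed, at adjusted p of 0.121, 0.337 and 0.167 by edgeR. For Pnoc they were Psat1 (0.0924), a serine synthesis enzyme, Id4 (0.101), an inhibitor of helix-loop-helix factors, and Ppard (0.121), a nuclear receptor. Of these Id4 fell, to 139 ± 14.6 CPM in advanced glaucoma against 199.5 ± 21.6 CPM in control (adjusted p = 0.0155 by edgeR; 0.0983 without scn_cont_570, 0.0930 without scn_glauc_153 and 0.0843 without scn_glauc_154).

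**Figure D3:**
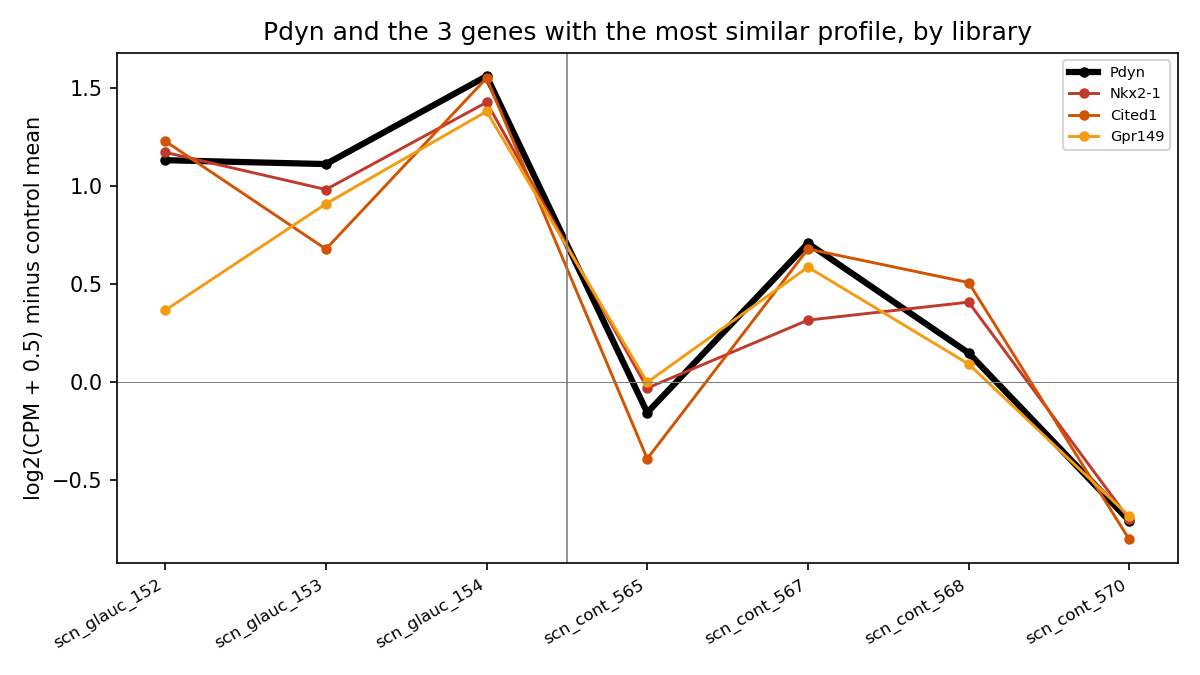
Log2(CPM + 0.5) minus the control mean in each library for Pdyn (thick line) and the 3 genes with the most similar profile (Nkx2-1, Cited1 and Gpr149). All 4 lines are above 0 in the 3 advanced glaucoma libraries and below 0 in scn_cont_570. The 3 genes were chosen for this likeness over the libraries of both groups.

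Oprk1, the kappa receptor on which dynorphins act (ENSMUSG00000025905, chromosome 1, 5588466 to 5606131, plus strand), had levels of 40.8, 42.7 and 52.9 CPM in the libraries scn_glauc_152, scn_glauc_153 and scn_glauc_154. It was at 31.8, 39.5, 29.5 and 29.9 CPM in scn_cont_565, scn_cont_567, scn_cont_568 and scn_cont_570. The gap between the groups was narrow, since scn_cont_567 nearly reached scn_glauc_152. Means were 45.4 ± 6.52 CPM in advanced glaucoma and 32.7 ± 4.66 CPM in control (SD, n = 3 and n = 4). The log2 fold change of 0.48 had an SE of 0.155, a 95% interval from 0.16 to 0.80 and an adjusted p of 0.257 (edgeR). It passed in none of its 13 alternatives, at 0.127 to 0.808, and was at 0.47 without scn_cont_565 (adjusted p = 0.284).

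Oprl1, the nociceptin receptor (ENSMUSG00000027584, chromosome 2, 181715016 to 181720985, plus strand), had levels of 124, 119.6 and 114 CPM in the libraries scn_glauc_152, scn_glauc_153 and scn_glauc_154. In scn_cont_565, scn_cont_567, scn_cont_568 and scn_cont_570 it was at 103, 99.8, 69.9 and 85.9 CPM. The advanced glaucoma libraries agreed closely with each other, with a coefficient of variation of 4.26% against 16.8% in control. Means were 119 ± 5.07 CPM in advanced glaucoma and 89.6 ± 15.04 CPM in control (SD, n = 3 and n = 4). This gave a log2 fold change of 0.42, with an SE of 0.118, a 95% interval from 0.18 to 0.67 and an adjusted p of 0.148 (edgeR). It passed without scn_cont_565 (log2 fold change 0.49, adjusted p = 0.0446) and with no filter on low counts (0.0183), in a range of 0.0183 to 0.458 over 13 alternatives. Its ligand precursor Pnoc differed in the other direction, so that both advanced glaucoma levels lay outside the control range on opposite sides.

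The mu and delta receptors were near the limit of detection. Oprm1, the mu receptor (ENSMUSG00000000766, chromosome 10, 6758506 to 7038198, plus strand), had 3, 5 and 1 counts in scn_glauc_152, scn_glauc_153 and scn_glauc_154, against 3, 5, 1 and 4 in control, in the order scn_cont_565, scn_cont_567, scn_cont_568 and scn_cont_570. Oprd1, the delta receptor (ENSMUSG00000050511, chromosome 4, 132110726 to 132144486, minus strand), had 1, 4 and 4 counts in the same advanced glaucoma libraries, against 1, 1, 0 and 1 counts in control. Neither passed the filter on low counts, so neither was tested in the main fit. With no filter the log2 fold change was -0.46 for Oprm1 (adjusted p = 0.925) and 1.61 for Oprd1 (adjusted p = 0.775, edgeR), both from these few counts. A level of 3 counts stands for 0.591 to 0.831 CPM in advanced glaucoma libraries and 0.540 to 1.49 CPM in control libraries. A fall or a small rise in either receptor was therefore not detectable at this depth. Oprm1 overlaps Ipcef1, which had 7 to 47 counts, and Gm10945, which had 0, each on the opposite strand.

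Genes that act around the opioid system were read from 7 lists with 95 tested genes in all, of which 1 rose and 1 fell (edgeR), against 0.0927% higher and 0.378% lower among all tested genes. The median log2 fold change of the 95 was 0.03, and that of all tested genes was -0.01. The gene that rose was Ecel1, a membrane metallopeptidase of the neprilysin family, in the list of 12 tested peptide-degrading enzymes (median -0.01). Ecel1 had levels of 117, 76.9 and 95.8 CPM in the libraries scn_glauc_152, scn_glauc_153 and scn_glauc_154, against 54.1 to 70.9 CPM in control (log2 fold change 0.62, adjusted p = 0.0220 by edgeR). Its call was lost without scn_cont_567 (0.0548), scn_cont_570 (0.0723), scn_glauc_152 (0.219) or scn_glauc_154 (0.132). Mme, neprilysin itself and the best known enkephalin-degrading enzyme, was at 2.92 ± 0.97 CPM in advanced glaucoma and 4.68 ± 2.64 CPM in control (adjusted p = 0.793).

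The gene that fell was Fos, an AP-1 subunit gene induced by neuronal activity, in the list of 17 regulators of precursor transcription (median -0.11). Fos had levels of 24.04, 19.6 and 21.05 CPM in the libraries scn_glauc_152, scn_glauc_153 and scn_glauc_154, against 39.5 to 44.5 CPM in control (log2 fold change -0.97, adjusted p = 0.00160 by edgeR). It passed in all 13 alternatives, at 2.77e-05 to 0.0169. Kcnip3, which encodes DREAM, a calcium-dependent repressor that binds the PDYN gene in human cells, was at 28.99 ± 2.35 CPM in advanced glaucoma and 36.2 ± 7.20 CPM in control (log2 fold change -0.31, adjusted p = 0.699).

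The other 5 lists had no call by edgeR, DESeq2 or limma-voom. Among 11 precursor processing enzymes (median 0.03, 1 at an unadjusted p under 0.05), Pam, which amidates peptides, differed by 0.29 on the log2 scale (adjusted p = 0.401, edgeR). Scg5, the chaperone of convertase PC2, was at 0.13 (0.779). Among 19 Gi/o subunits and adenylyl cyclases (median 0.06, 2 at an unadjusted p under 0.05), Adcy2 and Adcy3 were at -0.33 and -0.27 (0.589 and 0.590). Among 18 receptor kinases, arrestins and RGS genes (median 0.04, 3 at an unadjusted p under 0.05), Rgs14 was at 0.85 (0.444) and Rgs4, which shortens Gi/o signals, at 0.27 (0.457). Among 11 channel effectors (median 0.06, 1 at an unadjusted p under 0.05), the pacemaker channel gene Hcn2 was at -0.59 (0.266) and Cacna2d1 at 0.62 (0.694). Hcn2 passed with no filter on low counts. Among 7 tested relatives and modulators (median 0.20, 0 at an unadjusted p under 0.05), Mrgpre and Npffr1, a receptor for neuropeptide FF, were at 0.29 and 0.31 (0.782 for each). Pomc, the precursor of beta-endorphin, was at 143 ± 43.98 CPM in advanced glaucoma and 124 ± 91.0 CPM in control (log2 fold change 0.21, adjusted p = 0.984), with control libraries from 23.6 to 223 CPM.

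**Figure D4:**
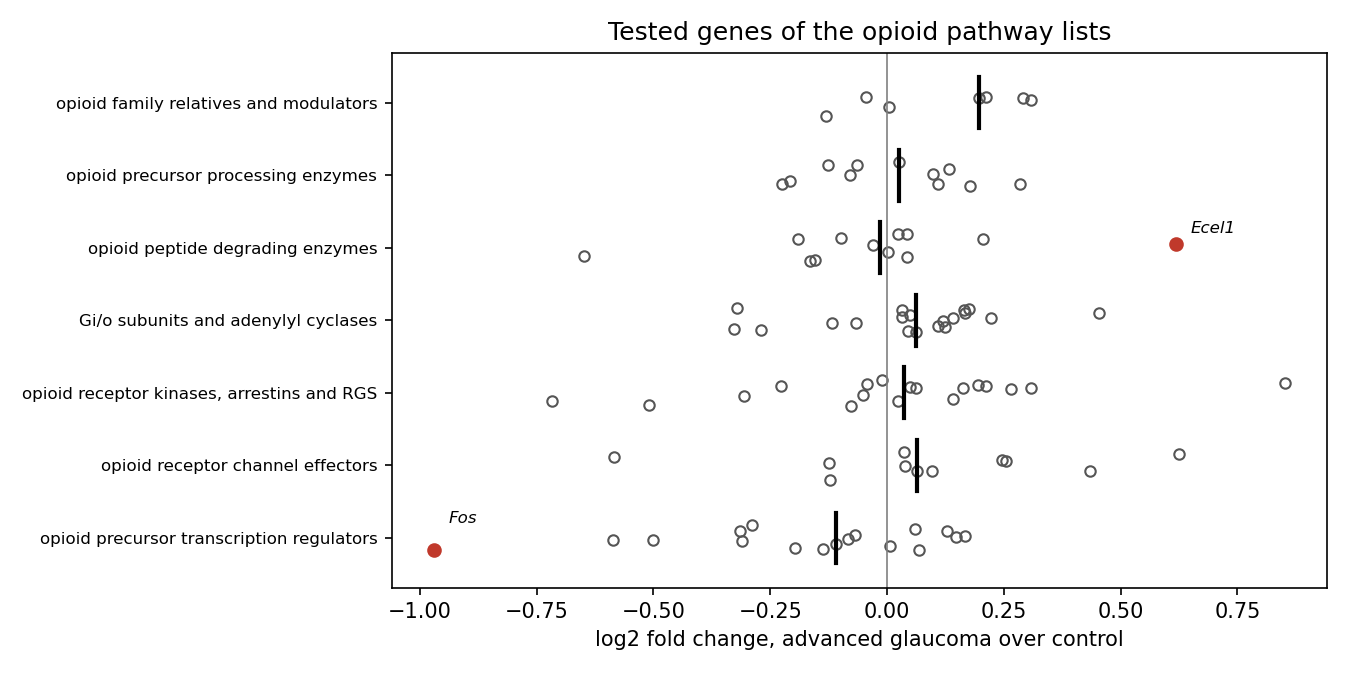
Log2 fold change, advanced glaucoma over control, of the 95 tested genes in 7 lists around the opioid system; each circle is a gene, the black bar is the list's median, and filled circles have an adjusted p under 0.05. Ecel1 at 0.62 and Fos at -0.97 are the filled circles, and the medians lie between -0.11 and 0.20.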

How the data were processed

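RNA from 7 SCN dissections was made into 3′ tag libraries by BRB-seq with the MERCURIUS kit, per the labels' protocols. The authors deposited a table of raw counts, 1 row per gene. The submitters' processing notes list build mm10 and the tools STAR, featureCounts, HTSeq and DESeq2. Their roles and versions, the strand setting and the handling of molecular identifiers are not given in the sources used here, so counts may be reads and not molecules. Whether the libraries came from separate mice rests on the design text, and otherwise p-values measure only the spread between these samples; no pair of libraries agreed within counting noise.

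Symbols were found for 55141 of 55487 identifiers, and coordinates come from GENCODE M21 (GRCm38). The main test used edgeR 4.0.16 under R 4.3.3: filterByExpr by group, TMM factors, and a robust quasi-likelihood test with the group as the only term, adjusted by Benjamini-Hochberg over 14020 genes at 0.05. The SE was computed as log2 fold change divided by the square root of F. DESeq2 1.42.0 and limma-voom (limma 3.58.1) were alternatives, with other scalings, other filters and leaving out each library. In simulated counts for this comparison with 200 of 14020 genes changed, 93.9% of 4-fold and 77.8% of 2-fold changes were recovered (98 and 99 genes tested). In the same counts 11 unchanged genes were called. No change under 2-fold was simulated, and among the tested opioid genes only Pdyn differed by more than 2-fold. The rates therefore do not cover differences of the size seen in the others. They are averages over randomly drawn genes, and Pdyn had the largest SE of the tested opioid genes (0.346). The 2-fold rate thus does not give the chance of recovery for Pdyn. The members and lists were chosen with earlier results of these data known. Named genes are the opioid genes, pathway list members that passed, or the 2 with the smallest p in a pathway list with none, the 3 most similar profiles per precursor, and up to 3 genes of a marker list beside a result. The choice of marker genes within their lists was made with values seen. Mme, Kcnip3, Pomc and the further marker genes Drd1 and Rfx4 were added in the same way. The floor of 3 counts covers counting error only.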

Additional observations from a re-analysis of the deposited data

Results flagged for a closer look

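Pnoc in control was marked because 1 of the 4 libraries stood far from the others: scn_cont_570 was at 55.3 CPM, while scn_cont_565, scn_cont_567 and scn_cont_568 were at 35.7, 35.8 and 37.7 CPM. The gap to the nearest library was 0.901 of the control range, above Dixon's critical value for 4 samples. Chance marks about 1 in 20 groups, and 5 genes were examined. The same library had the lowest Pdyn level of the 7, at 36.7 CPM.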

How the results depend on the processing

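All 5 tested opioid genes kept their direction in each of the 13 alternatives run: 6 other settings and 7 fits with 1 library left out. The groups did not overlap for these genes, so leaving out 1 library could hardly reverse a direction. The other settings reuse the same counts, so the kept directions add no support. The number called was 0 with edgeR on all libraries, 2 with no filter on low counts (Penk at a log2 fold change of -0.42 and Oprl1 at 0.44), 1 with DESeq2 (Penk at -0.44), and 0 to 2 with a library left out. With a library left out, log2 fold changes ran from -0.51 to -0.37 for Penk, 0.99 to 1.50 for Pdyn, -0.65 to -0.38 for Pnoc, 0.36 to 0.58 for Oprk1 and 0.32 to 0.49 for Oprl1. The number of genes called was 66 with edgeR, 202 with no filter (94 higher and 108 lower, of 24908 genes tested) and 28 to 93 with a library left out. Genes called in the opioid pathway lists numbered 1 or 2 with a library left out and 2 or 3 otherwise. Scaling moved the median log2 fold change of all genes by less than 0.1. No paired analysis was possible because the groups share no replicate numbers. Depth limits Oprm1 and Oprd1, at 5 counts or fewer in every library.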

Other observations

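Within the control group, scn_cont_567 had the most Pdyn (98.9 CPM) and the most Oprk1 (39.5 CPM) but the least Penk (188 CPM). Among the advanced glaucoma libraries, scn_glauc_154 had the most Pdyn (179 CPM) and the most Oprk1 (52.9 CPM) and the least Penk (155 CPM). Oprk1 counts per 100 Pdyn counts were 30.7, 32.6 and 29.6 in scn_glauc_152, scn_glauc_153 and scn_glauc_154, against 58.7, 39.9, 44.1 and 81.4 in scn_cont_565, scn_cont_567, scn_cont_568 and scn_cont_570. The groups did not overlap in this ratio, which was chosen after the values were seen and was not tested.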
